A study of Gallus gallus with 3 samples.

Results

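The genes described here are those of the DNA replication and repair machinery, read in DT40, a lymphoma line of chicken B cells. They were chosen by symbol, as families of the replicative helicase, origin recognition complex, replicative polymerases, clamp loader, topoisomerases, recombination, Fanconi anaemia, mismatch and excision repair genes together with a few named checkpoint and repair genes, with MCM5 left out. Of the 3870 genes that could be named on the array, 54 belong to the machinery, with 57 of the 42034 probes. The rule takes 119 symbols of the chicken gene table, and those without a named probe, which include all mismatch repair genes that it takes, were not analysed here.

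The cells were exposed for 4 h to BP5 at 0.02 µg/ml or to BSP-II at 2 µg/ml, both of them peptides derived from the bursa of Fabricius, or were left without peptide (0 µg/ml, the control). All 3 groups are the same line in the same medium, so every difference concerns a transformed B cell line and not primary cells. Each group was represented by 1 array (replicate 1), with 1 colour and RNA of 1 culture condition, so the differences below are unreplicated and carry neither p-values nor standard deviations. The design text also mentions 2 experiments with different cells and 3 populations, without saying which of them each array stands for. Precision is limited by the number of arrays.

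Replication begins where the origin recognition complex loads the MCM helicase onto DNA. The helicase is then activated with GINS, primase starts each new strand, and a clamp placed by replication factor C holds the polymerases on the template. Checkpoint kinases and the fork protection proteins slow or shield forks that meet damage, and recombination, end joining, the Fanconi anaemia pathway and excision repair mend it. DT40 cells are widely used for the genetics of these pathways because they recombine targeted DNA readily and diversify their immunoglobulin genes by gene conversion.

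On these arrays the machinery was broadly transcribed and most members lay close to the control. Of the 54 members, 48 were detected with BP5 (flagged by the scanner software as well above background), 48 with BSP-II and 50 in the control, which is 88.9% with each peptide and 92.6% in the control. Among all named genes the detected share was 68.1% with BP5, 69.0% with BSP-II and 73.3% in the control. The fork protection gene TIPIN was the only member past 2-fold, higher with both peptides, and its probe lies in the outermost column of the array, where most probes read higher. All other members measured on both arrays of a comparison differed from the control by less than 2-fold, the lowest being ATM with BSP-II.

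The line was checked against markers. Of 9 B cell genes with a named probe, BTK, SYK, IKZF1, POU2AF1 and IRF4 were detected on all 3 arrays and LYN in the control, while CD79B, PAX5 and EBF1 were not on any. Of 5 T cell genes CD3D and CD247 were detected and CD3E, CD4 and CD8A were not. Of 4 macrophage, granulocyte, erythroid and thrombocyte genes, LYZ and TUBB1 were detected. Detection varied with the array, since 38.0% of all probes were detected with BP5, 39.6% with BSP-II and 46.6% in the control. The lowest signal so flagged was 49.1 units with BP5 and 36.7 units with BSP-II, against 30.2 units in the control. The 75th percentile of signal was 178.7 units with BP5 and 154.1 units with BSP-II, against 254.8 units in the control. Signals were therefore divided by this percentile before ratios were taken, and a log2 ratio below is the difference of such scaled log2 signals. The control array was read in a scan of its own and both peptide arrays shared another, so scan and peptide cannot be told apart when a peptide array is set against the control. The barcodes name 1 slide for all 3 arrays and differ in a further field, 1 for the control, 2 for BP5 and 3 for BSP-II. That field cannot be told apart from group in any comparison. The ± after a ratio combines the errors that the scanner software gave for the spots. Its median over members was 0.20 with either peptide, and its largest value 0.26 with BP5 and 0.33 with BSP-II. It was thus nearly the same for most members and does not come from repeated arrays. It leaves out variation of culture and labelling. It also leaves out position on the array. From column 3 on, the median ratio of a column ran from 0.19 (column 28) to -0.32 (column 85) with BP5. With BSP-II it ran from 0.26 (column 12) to -0.26 (column 80). Ratios of that size cannot be told apart from position. Signals of different probes are not comparable with each other, and only arrays are compared.

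**Figure D1:**
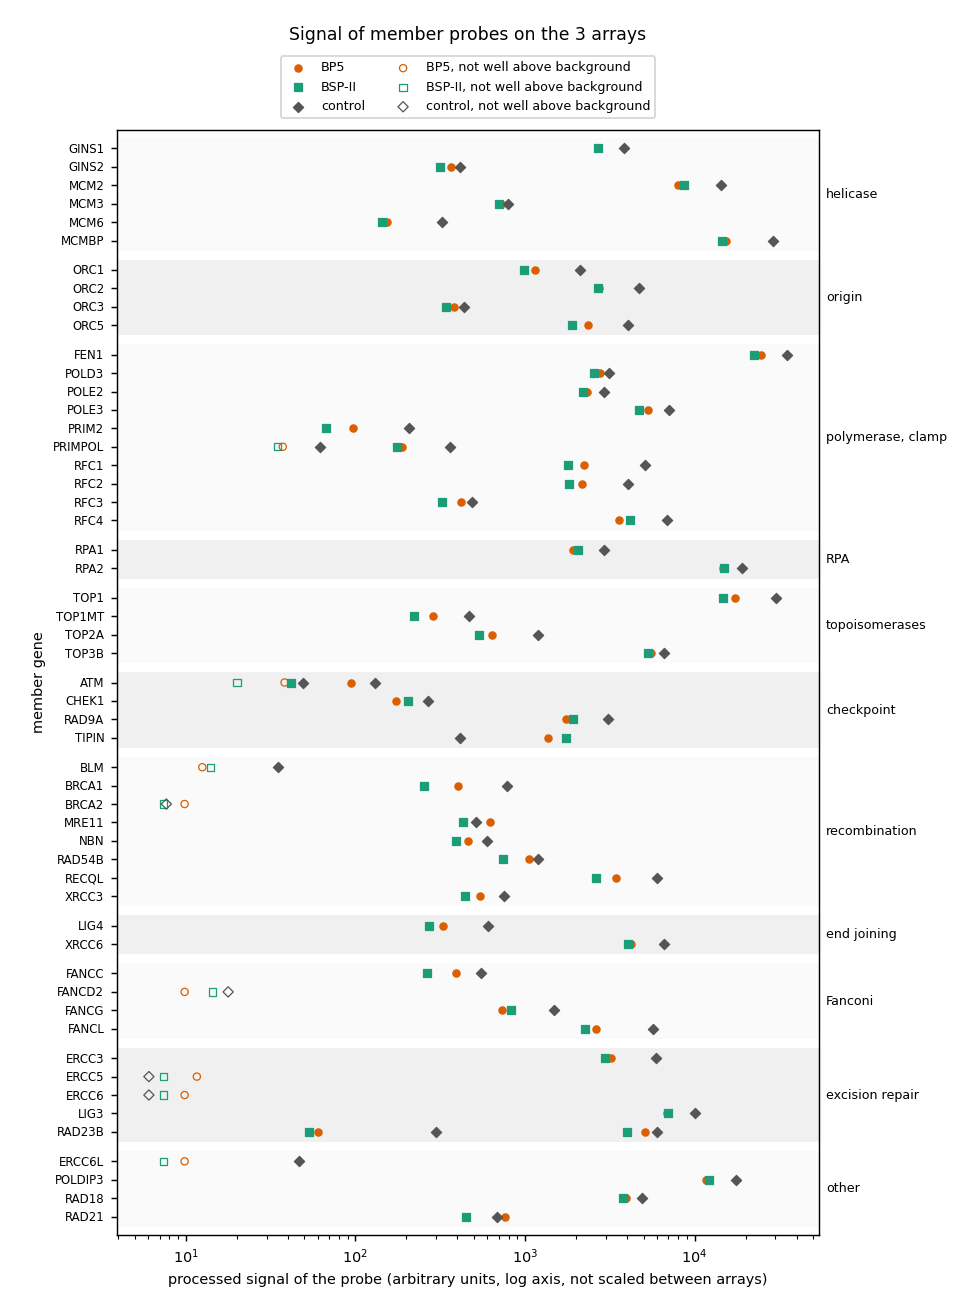
Processed signal (arbitrary units, log axis, before scaling) of 56 of the 57 member probes on the BP5, BSP-II and control arrays, ordered by role; open symbols are probes not well above background. TIPIN reads 1372 units with BP5 and 1739 units with BSP-II against 417 units in the control, whereas most other probes read highest on the control array, whose 75th percentile is the highest as well.

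Among the helicase genes, 6 members were measured and 0 passed 2-fold in either peptide comparison. MCM6, a subunit of the MCM2 to MCM7 ring, had 154.0 units with BP5, 144.1 units with BSP-II and 324.1 units in the control. After scaling its ratio was -0.56 ± 0.23 for BP5 and -0.44 ± 0.22 for BSP-II, the lowest of the class. MCM3, another subunit of the ring, had 719 units with BP5, 699 units with BSP-II and 795 units in the control. Its ratios lay on the other side, at 0.37 ± 0.21 for BP5 and 0.54 ± 0.20 for BSP-II. Thus these 2 subunits of 1 complex lay on both sides of the control, within 1.5-fold of it in this scaling. With neighbouring probes subtracted MCM6 was past 1.5-fold lower with BP5. MCM2 had ratios of -0.34 for BP5 and -0.01 for BSP-II, and MCMBP, which binds MCM complexes, -0.41 with BP5 and -0.27 with BSP-II. The GINS subunits GINS1 (0.01 with BP5 and 0.22 with BSP-II) and GINS2 (0.34 with BP5 and 0.33 with BSP-II) were near or slightly above the control. These values stand apart from that of MCM5, a subunit of the same ring and not one of the 54 genes, whose single probe had a ratio of -4.02 with BP5 and -3.43 with BSP-II. The peptide readings of MCM5 lie near the lowest detected signals, and the size of that separation was not tested.

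The origin recognition complex was measured through 4 of its subunits, and 0 passed 2-fold. ORC1, an ATPase subunit of the complex, had 1143 units with BP5, 993 units with BSP-II and 2116 units in the control. Its ratios were -0.38 ± 0.20 with BP5 and -0.37 ± 0.20 with BSP-II. The ORC1 probe lies in column 82, where the other probes had a median ratio of -0.30 with BP5 and -0.18 with BSP-II. ORC3 had 380 units with BP5, 342 units with BSP-II and 439 units in the control, with ratios of 0.30 ± 0.21 with BP5 and 0.36 ± 0.21 with BSP-II. ORC2 had ratios of -0.27 with BP5 and -0.08 with BSP-II, and ORC5 of -0.28 with BP5 and -0.38 with BSP-II. So 3 of the 4 subunits lay below the median of all genes in both comparisons with the control. With neighbouring probes subtracted 1 of 4 lay below it with BP5 and 2 with BSP-II, and under normexp 2 with each.

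Of 10 genes of the polymerases, primases, clamp loader and flap processing, 0 passed 2-fold. PRIM2, the large subunit of primase, had the lowest mean ratio of the class over both peptides. Its probe read 97.0 units with BP5, 67.4 units with BSP-II and 207.4 units in the control, giving ratios of -0.58 ± 0.25 for BP5 and -0.90 ± 0.26 for BSP-II. The probe lies in column 85, the last of the array, where the other probes had a median ratio of -0.32 with BP5 and -0.11 with BSP-II. Relative to those probes its ratio was -0.27 with BP5 and -0.79 with BSP-II. After normexp the lowest ratio among all measured members, of which PRIM2 is 1, was -0.37 with BP5 and -0.48 with BSP-II. POLD3, a subunit of polymerase delta, had 2775 units with BP5, 2564 units with BSP-II and 3110 units in the control, with the highest ratios of the class (0.35 ± 0.20 with BP5 and 0.45 ± 0.20 with BSP-II). The polymerase epsilon subunits POLE2 (0.20 with BP5 and 0.31 with BSP-II) and POLE3 (0.09 with BP5 and 0.12 with BSP-II) were close to the control, as was the flap endonuclease FEN1 (0.01 with BP5 and 0.08 with BSP-II).

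The clamp loader genes lay on both sides of the control. RFC1, its large subunit, had 2241 units with BP5, 1800 units with BSP-II and 5124 units in the control, with ratios of -0.68 ± 0.20 with BP5 and -0.78 ± 0.20 with BSP-II, or 1.60-fold lower with BP5 and 1.72-fold lower with BSP-II. RFC2 had ratios of -0.39 with BP5 and -0.43 with BSP-II, and RFC4 had -0.43 with BP5 and 0.00 with BSP-II. RFC3 was on the other side, at 0.28 with BP5 and 0.12 with BSP-II, though these became -0.04 with BP5 and -0.34 with BSP-II after subtraction of its neighbouring probes. PRIMPOL, a primase that restarts stalled forks, has 2 probes. The brighter probe had 188.1 units with BP5, 176.6 units with BSP-II and 362.1 units in the control (ratios -0.43 ± 0.22 with BP5 and -0.31 ± 0.21 with BSP-II), and the dimmer probe, at 37.3 units with BP5, 34.7 units with BSP-II and 61.7 units in the control, was detected on the control array only.

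Replication protein A, which coats exposed strands, and the topoisomerases, which relieve the twist ahead of forks, held 6 members, and 0 passed 2-fold. RPA2 had 14761 units with BP5, 14903 units with BSP-II and 18926 units in the control, and ratios of 0.15 ± 0.20 with BP5 and 0.38 ± 0.20 with BSP-II. RPA1 had 1927 units with BP5, 2051 units with BSP-II and 2930 units in the control, and ratios of -0.09 ± 0.20 with BP5 and 0.21 ± 0.20 with BSP-II. Both subunits thus had a higher ratio with BSP-II than with BP5. For RPA2 this turned round, to 0.05 higher with BP5 on the log2 scale, in the authors' values and under quantile normalization. The median of the 2 subunits was 0.03 with BP5 and 0.30 with BSP-II. With neighbouring probes subtracted it was -0.36 with BP5 and -0.14 with BSP-II. TOP2A, the topoisomerase of dividing cells, had 639 units with BP5, 535 units with BSP-II and 1191 units in the control (ratios -0.39 ± 0.21 with BP5 and -0.43 ± 0.21 with BSP-II). TOP3B had 5513 units with BP5, 5294 units with BSP-II and 6639 units in the control (ratios 0.24 ± 0.20 with BP5 and 0.40 ± 0.20 with BSP-II). TOP1 and the mitochondrial TOP1MT lay below the control, TOP1 with ratios of -0.28 for BP5 and -0.30 for BSP-II, and TOP1MT with -0.20 with BP5 and -0.36 with BSP-II.

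The fork protection and checkpoint genes included the member with the largest difference from the control with either peptide, TIPIN. TIPIN, the partner of TIMELESS in the complex that shields the fork, had 1372 units with BP5, 1739 units with BSP-II and 417 units in the control. It was the only member detected in the control whose signal was over 1.5 times the control's on a peptide array before any scaling. After scaling it was 4.69-fold higher with BP5 (log2 ratio 2.23 ± 0.21) and 6.90-fold higher with BSP-II (2.79 ± 0.21). Its single probe, for transcript NM_001012690, lies in row 252 and column 1 of 85. The 89 other probes measured in that column had a median ratio of 1.44 with BP5, of which 77 lay below TIPIN and 12 above it. With BSP-II the 89 had a median of 1.57, with 84 below TIPIN and 5 above it. Relative to its own column TIPIN had a ratio of 0.79 with BP5, under 2-fold, and 1.22 with BSP-II. It was the only member probe in columns 1 and 2, so no other member can show how the machinery reads there. With the median of its neighbouring probes (up to 3 rows and columns away) subtracted instead, TIPIN was at 1.31 with BP5 and 2.49 with BSP-II, past 2-fold with both. Those neighbours reach columns 3 and 4, whose medians were -0.02 and -0.05 with BP5 and 0.13 and 0.14 with BSP-II. Their median therefore does not stand for column 1, and this value cannot tell TIPIN from its column.

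**Figure D2:**
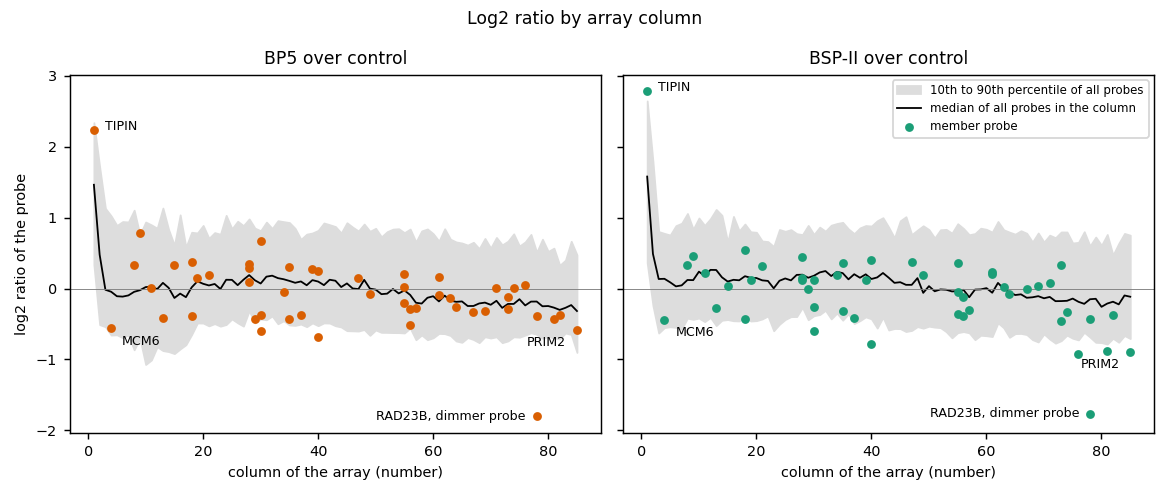
Log2 ratio to the control of member probes (points) against the array column of the probe, for BP5 and BSP-II, with the median (line) and the 10th to 90th percentile (band) of all probes measured in each column. TIPIN, in column 1, sits at 2.23 with BP5 and 2.79 with BSP-II where the column's own median is near 1.5, and the dimmer RAD23B probe is the lowest member probe in both panels.

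The other checkpoint members were the kinases ATM and CHEK1 and RAD9A, a part of the clamp that signals damage. The brighter of 2 ATM probes had 94.7 units with BP5, 41.5 units with BSP-II and 130.6 units in the control. The ratio was 0.05 ± 0.26 for BP5 and -0.93 ± 0.33 for BSP-II, so that ATM was low on the BSP-II array alone. The BSP-II reading lies near the 36.7 units of the dimmest probe flagged as detected there, and after normexp background correction the ratio was -0.32. Its dimmer probe had 38.2 units with BP5, 20.1 units with BSP-II and 49.0 units in the control, and was detected on the control array only. CHEK1 had ratios of -0.12 with BP5 and 0.33 with BSP-II, and RAD9A of -0.31 with BP5 and 0.04 with BSP-II.

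Among the recombination and helicase genes described here 0 passed 2-fold. MRE11, the nuclease of the complex that senses broken ends, had 622 units with BP5, 432 units with BSP-II and 517 units in the control. Its ratio of 0.78 ± 0.21 for BP5 (1.71-fold) was the highest of any member after TIPIN, and that for BSP-II was 0.46 ± 0.21. BRCA1, which promotes resection of broken ends, had 405 units with BP5, 255.3 units with BSP-II and 778 units in the control. Its ratios were -0.43 ± 0.21 for BP5 and -0.88 ± 0.21 for BSP-II, or 1.84-fold lower with BSP-II. After normexp they were -0.17 with BP5 and -0.48 with BSP-II. NBN, the partner of MRE11, had ratios of 0.14 with BP5 and 0.11 with BSP-II. The ratios of RAD54B (0.34 with BP5 and 0.03 with BSP-II), XRCC3 (0.03 with BP5 and -0.05 with BSP-II) and the helicase RECQL (-0.28 with BP5 and -0.46 with BSP-II) lay within 1.5-fold of the control. The helicase BLM was detected on the control array only, with 12.5 units with BP5, 14.0 units with BSP-II and 34.8 units in the control, and BRCA2 on none.

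In end joining, XRCC6, which encodes the Ku70 subunit that binds broken ends, had 4242 units with BP5, 4066 units with BSP-II and 6633 units in the control, with ratios of -0.13 ± 0.20 with BP5 and 0.02 ± 0.20 with BSP-II. LIG4, the ligase of that pathway, had 327.9 units with BP5, 272.5 units with BSP-II and 602.9 units in the control, with ratios of -0.37 ± 0.21 with BP5 and -0.42 ± 0.21 with BSP-II. Of the Fanconi anaemia genes, which act on crosslinks between strands, FANCL, the ubiquitin ligase subunit, had 2623 units with BP5, 2258 units with BSP-II and 5656 units in the control. It was lower to the same degree with both peptides (-0.60 ± 0.20 for each), or 1.51-fold with BP5 and 1.52-fold with BSP-II. Both ratios share the control reading. FANCL was past 1.5-fold with neither peptide after subtraction of neighbouring probes, and with both after subtraction of the array column. FANCC had 391.4 units with BP5, 265.8 units with BSP-II and 553.7 units in the control, with ratios of 0.01 ± 0.21 with BP5 and -0.33 ± 0.21 with BSP-II. FANCG, like FANCC a core complex subunit, had ratios of -0.51 with BP5 and -0.12 with BSP-II, and FANCD2, the substrate of the ligase, was detected on no array.

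Among excision repair genes the probes of RAD23B, a partner of the damage sensor XPC, disagreed. The dimmer probe had 60.6 units with BP5, 53.5 units with BSP-II and 300.8 units in the control (ratios -1.80 with BP5 and -1.77 with BSP-II). Its peptide readings lie near the lowest detected signals, 49.1 units with BP5 and 36.7 units with BSP-II. The brighter probe had 5098 units with BP5, 3986 units with BSP-II and 5974 units in the control (ratios 0.28 with BP5 and 0.14 with BSP-II). The mean over both was -0.76 ± 0.19 for BP5 and -0.81 ± 0.18 for BSP-II. Since the probes differ in sign in this scaling, RAD23B was not counted in it as past any fold. With neighbouring probes or the array column subtracted, it counted as past 1.5-fold lower with BSP-II. The ± here leaves out the disagreement between the probes. LIG3, a ligase that seals repaired strands, had 6865 units with BP5, 6994 units with BSP-II and 10095 units in the control (ratios -0.04 ± 0.20 with BP5 and 0.20 ± 0.20 with BSP-II). ERCC3, the XPB helicase of the transcription factor TFIIH, had ratios of -0.37 with BP5 and -0.26 with BSP-II. ERCC5, an endonuclease, and ERCC6, a remodeller of transcription-coupled repair, were detected on no array.

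The remaining members were placed in none of the classes above. RAD21, a cohesin subunit, had 768 units with BP5, 451 units with BSP-II and 685 units in the control, with ratios of 0.68 ± 0.21 for BP5 and 0.12 ± 0.21 for BSP-II. POLDIP3, named for binding polymerase delta, had 11650 units with BP5, 12108 units with BSP-II and 17573 units in the control (ratios -0.08 ± 0.20 with BP5 and 0.19 ± 0.20 with BSP-II). RAD18, a ubiquitin ligase of damage bypass, had ratios of 0.21 with BP5 and 0.36 with BSP-II. ERCC6L, a DNA translocase of mitosis, was detected on the control array only, with 9.85 units with BP5, 7.36 units with BSP-II and 46.6 units in the control. The peptide readings are the floor of their arrays. ERCC6L and BLM were the only members detected on the control array and on neither peptide array. Neither allows a bound on a fold, because their scaled control values lie below the detection limits of the peptide arrays. That 0 of the 2 were at least 2-fold lower by bound was thus fixed by those limits. Of the 216 genes detected in the control but not with BP5, 6.94% were at least 2-fold lower by bound. Of the 179 detected in the control but not with BSP-II, 7.26% were.

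**Figure D3:**
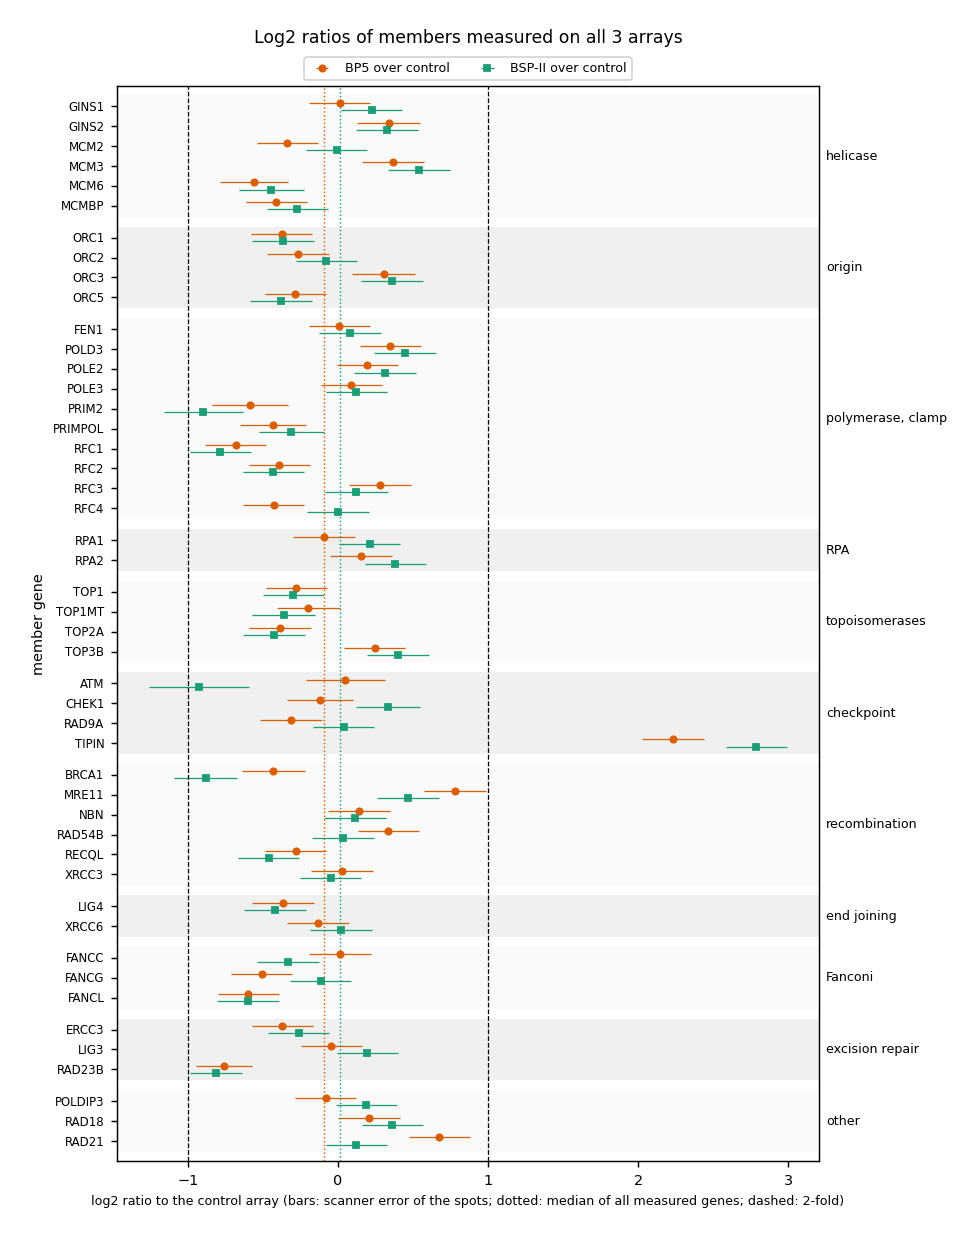
Log2 ratio to the control array of 47 of the 48 members measured on all 3 arrays, for BP5 and BSP-II, by role, with the scanner error of the spots as bars, the median of all measured genes as dotted lines and 2-fold as dashed lines. TIPIN alone lies beyond a dashed line.

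As a group the members had nearly the median ratio of all genes. With BP5, 1 of 48 members was at least 2-fold higher and 0 were lower, where 2.91% of the 2578 measured genes were higher and 3.76% lower. At 1.5-fold, MRE11, RAD21 and TIPIN were higher and FANCL and RFC1 lower, 3 and 2 of 48, beside 8.30% and 10.8% of all genes. The members' median ratio was -0.11 and that of all genes -0.09, with 23 members above the median of all genes and 25 below it. With BSP-II, 1 of 48 was at least 2-fold higher and 0 were lower, where 2.79% of 2615 measured genes were higher and 2.14% lower. At 1.5-fold TIPIN was higher and ATM, BRCA1, FANCL, PRIM2 and RFC1 were lower, 1 and 5 of 48, beside 9.90% and 6.85% of all genes. The 1.5-fold counts depend on the processing, in alternatives set after the data were seen. After normexp, which raised the median of all genes to 0.11 with BP5 and 0.17 with BSP-II, 6 members were higher and 0 lower with each peptide. The share of all genes past 1.5-fold was not computed under the alternatives, so these counts cannot be set beside it. With BP5 neither FANCL nor RFC1 was past 1.5-fold in the authors' values, under quantile normalization, with scaling over detected probes or with neighbouring probes subtracted. The lower member with BP5 was instead PRIM2 in the authors' values and under quantile normalization. It was MCM6 with neighbouring probes subtracted, and scaling over detected probes left 0 lower. MRE11 was past it in each alternative, and RAD21 in each but the subtraction of neighbouring probes. That subtraction also took FANCL and RFC1 out of the lower members with BSP-II and brought in LIG4, RAD23B and TOP2A, for 6 lower. With the array column subtracted instead, LIG4, RAD23B and TOP2A joined the lower members with BSP-II and none left, for 8 lower. With BSP-II, in the scaling used for the ratios above, the medians were 0.01 for both the members and all genes, with 24 members on each side. Both comparisons share the control array, so their likeness is no separate result.

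The spread of the members was close to that of all genes. The middle 50% of members ran from -0.38 to 0.17 with BP5 and that of all genes from -0.37 to 0.20. With BSP-II the members ran from -0.37 to 0.23 and all genes from -0.24 to 0.29. Ratios within 0.5 of 0 were found for 81.2% of members with BP5 and 83.3% with BSP-II, and for 72.7% of all genes with BP5 and 78.0% with BSP-II.

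**Figure D4:**
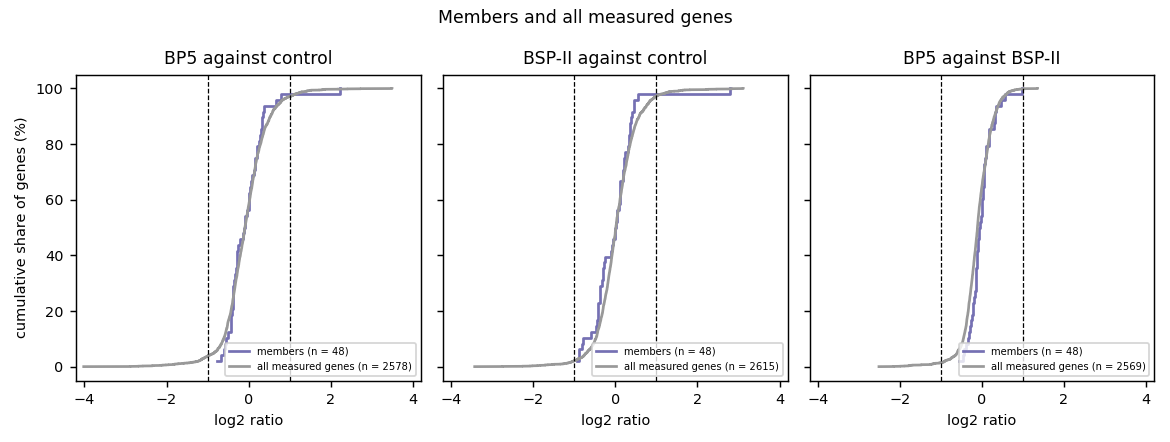
Cumulative share of genes (%) by log2 ratio for the members and for all measured genes in the 3 comparisons, with 2-fold as dashed lines. The member curve follows that of all genes around the middle. The lowest ratio of a measured member in any comparison is -0.93, while MCM5 is not among the members and the 6 members without a ratio are not drawn.

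The peptide arrays were also set against each other, within 1 scan but at different doses, so peptide and dose cannot be told apart. Of 48 members 0 were at least 2-fold higher with BP5 than with BSP-II and 0 lower, where 0.117% of 2569 genes were higher and 1.48% lower. ATM was closest, 1.97-fold higher with BP5 (0.98 ± 0.36), and was the only member past 1.5-fold. That fold was passed upward by 2.14% of genes and downward by 5.76%. RAD21 was past it as well in the authors' values, under quantile normalization, with scaling over detected probes and with the array column subtracted. With neighbouring probes subtracted BRCA1 and MRE11 joined ATM and TIPIN was past it downward, and after normexp no member was past it. ATM crossed 2-fold with scaling over detected probes (1.09), neighbouring probes subtracted (1.12) or the array column subtracted (1.03). Its difference was 0.21 after normexp. The median of a column in this comparison ran from -0.25 (column 17) to 0.07 (column 22). After ATM the highest differences were those of RAD21 (0.55 ± 0.21) and BRCA1 (0.45 ± 0.21). TIPIN had the lowest (-0.56 ± 0.20), followed by CHEK1 (-0.46 ± 0.23) and RFC4 (-0.43 ± 0.20). For 30 of the 48 members the difference was no larger than the scanner error. That error was close to 0.20 for most members and is no measure of variation between arrays.

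The wider pathway was read through 111 further replication and repair genes, of which 43 had a named probe and 41 were measured in each comparison. NTHL1, a glycosylase of base excision repair in column 1, has no ratio because the scanner software marked its spot as an outlier in the control. It read 1831 units with BP5 and 2793 units with BSP-II against 1082 units there. POLK, a polymerase of damage bypass, was detected in the control only. With BP5, 0 of the 41 were at least 2-fold higher and 3 lower, where 3.76% of all genes were lower. They were MCM5 (-4.02 ± 0.35), the maintenance methyltransferase DNMT1 (-2.69 ± 0.22) and the chromatin assembly subunit CHAF1B (-2.54 ± 0.27). With BSP-II 0 were higher and 4 lower, where 2.14% of all genes were lower. These were MCM5 (-3.43 ± 0.26), DNMT1 (-2.08 ± 0.21), CHAF1B (-2.27 ± 0.24) and POLQ, the polymerase of end joining at short homologies (-1.01 ± 0.22, and -0.66 with BP5). The list's median was -0.17 with BP5 and -0.13 with BSP-II, beside -0.09 with BP5 and 0.01 with BSP-II for all genes. The list was written with earlier results of these genes known, so its count is no independent evidence. MCM5 read 49.3 units with BP5 and 64.0 units with BSP-II, near the lowest detected signals there, against 1138 units in the control, and DNMT1 lies, like PRIM2, in column 85. CHAF1A, which pairs with CHAF1B, had ratios of -0.17 with BP5 and 0.12 with BSP-II.

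**Figure D5:**
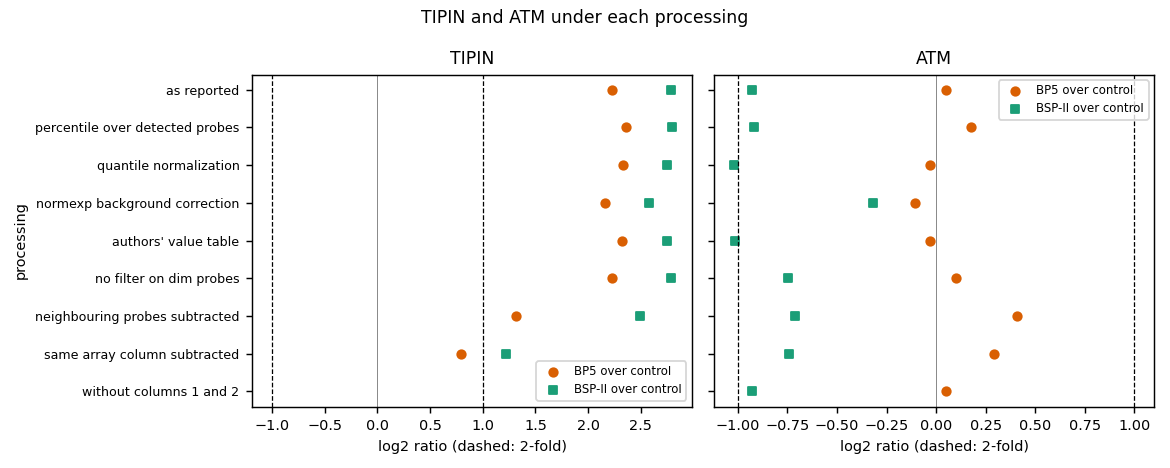
Log2 ratio to the control of TIPIN and ATM under each processing of the arrays, for BP5 and BSP-II, with 2-fold as dashed lines. TIPIN stays past 2-fold with BSP-II under each processing that keeps its probe and falls to 0.79 with BP5 when its array column is subtracted, and ATM with BSP-II lies between -1.02 and -0.71 except after normexp correction (-0.32).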

How the data were processed

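Each of the 3 arrays was deposited as a scanner file of spot intensity, which per the file headers Agilent Feature Extraction 10.5.1.1 had background-subtracted and spatially detrended, with dim spots at a floor; the grid is named for galGal3. Per the labels, total RNA was copied into cRNA carrying Cy3. Flags of 0 or 1 marked detection, saturation and outliers. The authors' deposited log2 table of 20085 probes (column medians 7.75, normalization not given in the sources used here) served as an alternative only; its direction and scale followed the scanner values (r of 1.000 in each array).

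Control spots (1417) and 153 outlier probes were left out, none of them a member's. Probes were named by unversioned RefSeq accession in the GRCg7b gene table, used for names only; 4000 matched. Log2 intensity was scaled to each array's 75th percentile over all probes. A gene's ratio was the mean over probes well above background on both arrays, and a gene counted past a fold only with all probes of 1 sign. Members may be named, except 1 whose own values are not reported here; full values are given for members past 2-fold, with several probes, or with the highest or lowest mean ratio of their role. Members and lists were chosen with earlier results of these data known. With 1 array per group no test was made. The steps were tested on simulated data. Normexp (limma 3.58.1, offset 50) used the median spot signal, because the files give no mean signal. Scripts ran in R 4.3.3 and Python 3.11.15. No sequences are printed.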

Additional observations from a re-analysis of the deposited data

How the results depend on the processing

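Counts of members past 2-fold with BP5 were 4 without the filter on dim probes and 5 at 1.5-fold. They were 0 without columns 1 and 2 or with the array column subtracted. Without the filter 3 of 54 members were higher and 1 lower, where 19.9% of all genes were higher and 4.65% lower. At 1.5-fold the shares of all genes were 8.3% and 10.8%. Without columns 1 and 2 they were 2.24% and 3.82%, and with the array column subtracted 2.48% and 2.95%. With BSP-II the member counts were 4 without the filter, 6 at 1.5-fold and 0 without columns 1 and 2. They were 2 in the authors' values and under quantile normalization, where ATM joined TIPIN (-1.02 in each). Without the filter 3 of 54 members were higher and 1 lower, where 19.3% of all genes were higher and 3.32% lower. At 1.5-fold the shares of all genes were 9.9% and 6.85%, and without columns 1 and 2 they were 2.06% and 2.17%. In the authors' values they were 2.26% and 2.1%, and under quantile normalization 2.29% and 2.1%. The members gained without the filter, ERCC5, ERCC6 and ERCC6L, include readings at the floor of an array. Between the peptides ATM was the 1 member past 2-fold with scaling over detected probes, neighbouring probes subtracted or the array column subtracted. The share of all genes then higher was 0.311%, 0.234% and 0.234%, in that order. In the scaling used for the ratios above ATM was the 1 past 1.5-fold. Under normexp the members' median was 0.16 with BP5 and 0.23 with BSP-II, beside 0.11 with BP5 and 0.17 with BSP-II for all genes, so all genes moved too; elsewhere the medians moved by less than the scanner error of 0.20. Over all settings the members' median lay between -0.16 and 0.07 from that of all genes. Ratios of single members to the control moved more. Normexp moved 33 of 48 with BP5 and 34 with BSP-II beyond their own scanner error. Subtraction of neighbouring probes moved 24 with BP5 and 20 with BSP-II beyond it, and 38 and 37 kept their sign. In the authors' values and under quantile normalization 0 moved beyond it against the control. Between the peptides, 9 of 48 moved beyond it in the authors' values and 11 under quantile normalization. In each of these, 36 of the 48 differences between the peptides kept their sign. Scaling over detected probes gave a median of all genes of 0.04 with BP5, where it was -0.09. With neighbouring probes subtracted, which for TIPIN reach as far as column 4, its ratios were 1.31 with BP5 and 2.49 with BSP-II. No paired analysis was possible because each group has 1 array. Detection limits what can be said of BLM, BRCA2, ERCC5, ERCC6, ERCC6L and FANCD2.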

Other observations

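Between the peptide arrays, the 41 measured genes of the wider pathway list had a median difference (BP5 minus BSP-II) of -0.15, beside -0.11 for all genes, with 17 above the median of all genes and 24 below it. The highest were BRIP1, the helicase that binds BRCA1, with 219.3 units with BP5 and 130.1 units with BSP-II (0.54 ± 0.23), the cohesin subunit SMC3 with 270.2 units with BP5 and 165.5 units with BSP-II (0.49 ± 0.22), and SMC5, of the related SMC5 and SMC6 complex, with 1046 units with BP5 and 677 units with BSP-II (0.41 ± 0.21). The lowest were DNMT1 with 154.3 units with BP5 and 203.1 units with BSP-II (-0.61 ± 0.23), MCM5 (-0.59 ± 0.39) and MBD4, a glycosylase of mismatched bases, with 8214 units with BP5 and 9567 units with BSP-II (-0.43 ± 0.20). These genes were singled out after their values were seen, and none reaches 2-fold. Higher with both peptides than in the control were PARP1, the sensor of strand breaks (0.58 ± 0.20 with BP5 and 0.84 ± 0.20 with BSP-II), and RNF8, a ubiquitin ligase at breaks (0.79 ± 0.20 with BP5 and 0.83 ± 0.20 with BSP-II), also chosen after their values were seen. Other genes of the list were lower with both by a like amount. Among them were CHEK2 (-0.87 with BP5 and -0.72 with BSP-II), DCLRE1C (-0.75 with BP5 and -0.69 with BSP-II) and CDC45 (-0.50 with BP5 and -0.70 with BSP-II). The median of the whole list lay below the control, at -0.17 with BP5 and -0.13 with BSP-II. The probe of RNF8 lies in column 2, where the median of all probes was 0.48 with BP5 and 0.49 with BSP-II, and that of PARP1 in column 3, where it was -0.02 with BP5 and 0.13 with BSP-II.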
